A study of Homo sapiens with 8 samples.

Results

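The 10 genes described here encode the mixed-lineage leukaemia protein MLL (KMT2A), its chromatin cofactors menin (MEN1) and LEDGF (PSIP1), the histone methyltransferase DOT1L, and the elongation cofactors MLLT1, MLLT3, MLLT10, AFF1, AFF4 and ELL. They were chosen by name, and all 10 were found among the 26830 gene symbols of the deposited table. Polyadenylated RNA had been sequenced from NOMO-1 and MOLM-13, both human acute myeloid leukaemia cell lines, after lentiviral delivery of a short hairpin RNA and puromycin selection. In each line, libraries with 1 hairpin against ALKBH5 (shALKBH5) were set against libraries with a control hairpin (shNS), and each of the 4 groups, NOMO-1 shALKBH5, NOMO-1 shNS, MOLM-13 shALKBH5 and MOLM-13 shNS, held 2 libraries (n = 2 throughout). A single hairpin carries the knockdown in both lines, and every group, controls included, was transduced and selected. The labels' texts differ on how long selection lasted, and they do not call the libraries separate cultures, so the spread that p-values measure here may be technical.

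MLL places methyl groups on lysine 4 of histone H3 and keeps HOX genes active. In leukaemias with a rearranged KMT2A gene, the N-terminal part of MLL, which still binds menin and LEDGF, is joined to a partner protein, often one that recruits DOT1L or the super elongation complex, a set of factors that releases paused RNA polymerase II. NOMO-1 and MOLM-13 both carry a fusion of KMT2A to MLLT3 (AF9). Values per gene cannot separate the fusion transcript from the wild-type transcripts of KMT2A and MLLT3. ALKBH5 removes m6A, a methyl mark on adenosines of RNA, which is placed most often within short motifs such as GGACU.

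Because m6A is placed in such motifs, the GGACT letters were located in 1 reference transcript per member (GENCODE release 29, GRCh38, the longest coding sequence). Of the 10 members, 3 had a GGACT within 200 bases of the stop codon, a region where m6A is often found, as did 37.2% of 11914 protein-coding genes among those tested. The windows below hold the GGACT nearest to the stop codon, in capitals, for those 3 members and for PSIP1, KMT2A and MLLT3, whose RNA fell in both lines. In AFF4 the motif began 39 bases before the stop codon, in MEN1 11 bases and in DOT1L 164 bases after the first base of the stop codon. In KMT2A it lay in the coding sequence and in PSIP1 and MLLT3 in the 3′ UTR, beyond 200 bases from the stop codon in each.
AFF4, chr5:132881086-132881110, - strand: tacccggcagGGACTgcactggctt
MEN1, chr11:64804311-64804335, - strand: gaactactggGGACTtcggaccgct
DOT1L, chr19:2229944-2229968, + strand: caggaggctgGGACTggtccagttt
PSIP1, chr9:15464804-15464828, - strand: tgaagtcttaGGACTtctttgcaga
KMT2A, chr11:118510048-118510072, + strand: acccaagaaaGGACTtgtttttgaa
MLLT3, chr9:20345628-20345652, - strand: taaacttgtaGGACTtttaaacaaa
These matches describe letters and do not show methylation. Over whole transcripts the members carried between 0.59 (PSIP1) and 1.24 (ELL) GGACT per kb, around the median of 0.946 over the 11914 genes. All 10 member transcripts were longer than the median of 2982 bases, with lengths from 3162 bases in MEN1 to 16628 bases in KMT2A, and AFF1, AFF4, KMT2A and MLLT3 had 3′ UTRs longer than or equal to those of at least 93.1% of these genes.

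Promoters are shown for PSIP1, KMT2A and MLLT3, which fell in both lines, and for MLLT10, which moved in opposite directions. They run from 250 bases before to 50 bases after the start site (RefSeq, GRCh38.p14), and for PSIP1 and MLLT10, which have 2 starts each in that table, the first listed is shown. Capitals mark GC boxes (GGGCGG, or CCGCCC where it lies on the other strand) and the CCAAT box (here ATTGG), each searched on both strands, and neighbouring GC boxes can share a base. The PSIP1 window shown holds neither.
PSIP1, chr9:15510921-15511220, - strand: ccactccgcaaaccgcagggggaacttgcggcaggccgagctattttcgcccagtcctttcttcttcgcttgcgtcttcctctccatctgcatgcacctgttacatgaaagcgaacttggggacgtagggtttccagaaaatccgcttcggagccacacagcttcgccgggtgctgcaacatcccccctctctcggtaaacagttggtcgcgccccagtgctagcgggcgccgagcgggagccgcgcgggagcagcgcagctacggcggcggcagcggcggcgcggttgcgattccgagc
KMT2A, chr11:118436242-118436541, + strand: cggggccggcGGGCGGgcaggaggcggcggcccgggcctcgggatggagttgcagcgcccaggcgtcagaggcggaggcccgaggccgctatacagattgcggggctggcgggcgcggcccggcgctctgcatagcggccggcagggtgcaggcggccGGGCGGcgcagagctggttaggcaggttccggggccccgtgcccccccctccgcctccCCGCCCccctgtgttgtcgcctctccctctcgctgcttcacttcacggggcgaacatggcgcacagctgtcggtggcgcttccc
MLLT3, chr9:20622450-20622749, - strand: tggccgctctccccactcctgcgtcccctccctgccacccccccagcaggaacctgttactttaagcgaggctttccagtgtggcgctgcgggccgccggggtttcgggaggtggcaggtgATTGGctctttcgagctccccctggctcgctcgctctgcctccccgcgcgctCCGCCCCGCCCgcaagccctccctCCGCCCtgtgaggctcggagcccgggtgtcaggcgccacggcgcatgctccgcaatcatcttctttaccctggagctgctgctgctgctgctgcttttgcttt
MLLT10, chr10:21533982-21534281, + strand: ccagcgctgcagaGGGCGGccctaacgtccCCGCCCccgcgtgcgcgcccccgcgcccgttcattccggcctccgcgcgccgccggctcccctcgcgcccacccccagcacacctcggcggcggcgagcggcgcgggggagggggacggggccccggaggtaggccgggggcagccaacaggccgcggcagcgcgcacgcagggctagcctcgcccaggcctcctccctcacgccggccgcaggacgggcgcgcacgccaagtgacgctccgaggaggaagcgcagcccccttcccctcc
The table held 13 starts for 9 of the 10 members and none for DOT1L, and the 2 windows of MEN1 overlap. A GC box stood in 11 of the 13 windows (45.0% of all 35116 promoters of this length, and 64.2% of the 14448 promoters of genes tested here), and a CCAAT box in 7 (34.6% of either set). The E-box CACGTG stood in 2 windows, those of AFF4 and MLLT1 (7.26% of all, 9.39% of those of tested genes). Neither the ETS motif CCGGAAG (10.3% of all, 16.6% of those of tested genes) nor the E2F motifs TTTCGCGC, TTTGGCGC and TTCCCGCC, the last of which can share bases with a GC box (4.24% and 6.22% for any of them), was matched in a member's window.

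ALKBH5, the targeted gene (chr17:18183078-18209954, GRCh38), had 15.1 and 14.2 TPM in NOMO-1 shALKBH5, against 70.4 and 71.8 TPM in NOMO-1 shNS. In MOLM-13 it had 9.45 and 7.35 TPM in shALKBH5, against 45.7 and 45.8 TPM in shNS. The change was -2.21 in NOMO-1 and -2.32 in MOLM-13 on the log2(TPM + 1) scale (SE 0.13 each, limma adjusted p = 0.00032 and 0.00019). TPM is a length-scaled share of all transcripts in a library, so its depth is unknown, and differences are given on the log2(TPM + 1) scale, which understates changes of low genes. Among the 8804 genes that averaged 10 TPM or more, the log2 difference between a group's libraries had an SD of 0.53 in MOLM-13 shALKBH5 and between 0.13 and 0.18 in the other 3 groups. The limma fit shared each gene's estimate of spread over all groups, so a gene's SE is the same in both lines. MOLM-13 intervals and p-values may therefore be too small, and those of NOMO-1 too large. The median of all 14302 genes tested was itself at 0.16 in NOMO-1 and at -0.18 in MOLM-13 (shALKBH5 minus shNS). Median-of-ratios scaling moved these medians by -0.16 and 0.21, to 0 and 0.03, so each change below is also given under that scaling where the call differs. All 5 myeloid markers examined (PTPRC, CD33, SPI1, LYZ and CSF1R) were above 1 TPM in every library. Their summed level was 1904 to 1914 TPM in NOMO-1 shALKBH5 against 840 to 877 TPM in shNS, and 12598 to 19971 TPM in MOLM-13 shALKBH5 against 9018 to 9645 TPM in shNS. LYZ, the lysozyme gene, made up most of these sums, with 1507 to 1532 TPM in NOMO-1 shALKBH5 against 463 to 500 TPM in shNS, and 12121 to 19263 TPM in MOLM-13 shALKBH5 against 8493 to 9126 TPM in shNS. The other 4 markers summed to 382 to 396 TPM in NOMO-1 shALKBH5 against 376 to 378 TPM in shNS, and to 476 to 708 TPM in MOLM-13 shALKBH5 against 519 to 525 TPM in shNS, where the groups overlapped. Markers of 3 other lineages (11 genes) stayed at or below 3.15 TPM except HBB, listed at 14.0 TPM in MOLM-13 shALKBH5 replicate 3 and at 0 elsewhere. The part of these shifts in the results below was not tested.

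In NOMO-1, 4 of the 10 members fell after ALKBH5 knockdown (KMT2A, PSIP1, MLLT1 and MLLT3) and 1 rose (MLLT10), at an adjusted p under 0.05 (limma, Benjamini-Hochberg over all genes tested). Over all genes tested, 15% were called lower and 28.6% higher in this comparison (43.6% in either direction). In MOLM-13, 6 members fell (KMT2A, PSIP1, MLLT3, MLLT10, AFF1 and AFF4) and 0 rose, with 0 higher at an unadjusted p under 0.05 as well. There, 31.2% of all genes were called lower and 10.6% higher (41.8% in either direction). The median of the 10 members was -0.21 in NOMO-1 and -0.76 in MOLM-13, beside all-gene medians of 0.16 and -0.18. In bulk RNA, fewer cells of a type and less RNA per cell cannot be told apart.

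**Figure D1:**
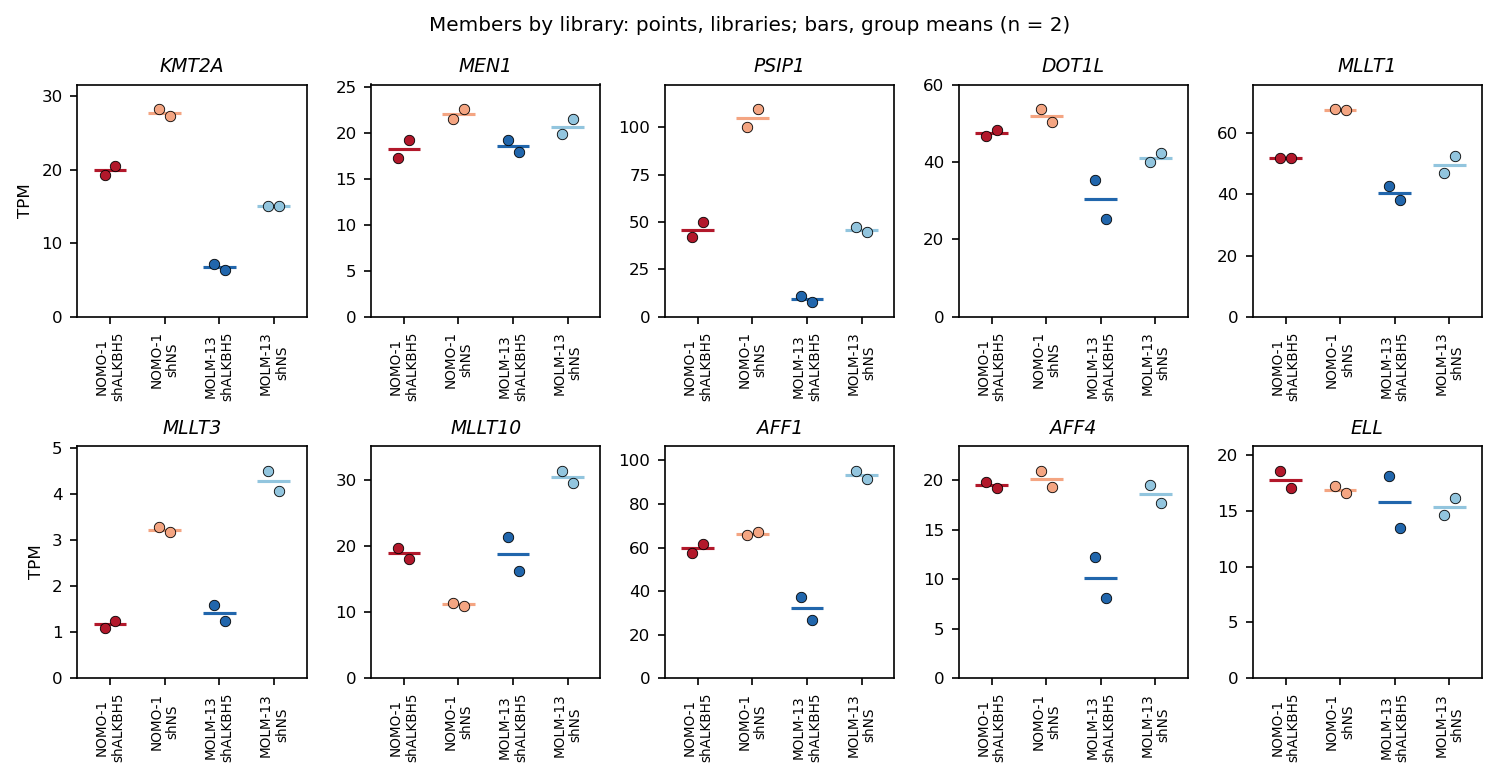
TPM of the 10 members in each library (vertical axes, linear, from 0), by group, with points for libraries and bars for group means (n = 2). PSIP1, KMT2A and MLLT3 sit lower in the shALKBH5 libraries of both lines, while MLLT10 sits higher in NOMO-1 shALKBH5 than in NOMO-1 shNS and lower in MOLM-13 shALKBH5 than in MOLM-13 shNS.

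KMT2A (chr11:118436464-118526832, + strand), the methyltransferase gene that is cut in the fusion, had 19.3 and 20.6 TPM in NOMO-1 shALKBH5, against 28.2 and 27.3 TPM in NOMO-1 shNS. The MOLM-13 values were 7.19 and 6.41 TPM in shALKBH5, against 15.1 and 15.0 TPM in shNS. The groups did not overlap in either line. The change was -0.46 in NOMO-1 (SE 0.10, limma adjusted p = 0.012) and -1.04 in MOLM-13 (SE 0.10, adjusted p = 0.00080). With array weights per group the limma adjusted p was 0.00032 in NOMO-1 and 0.011 in MOLM-13. By group means the transcript was 1.39 times lower in NOMO-1 and 2.21 times lower in MOLM-13. The NOMO-1 call ended when any of NOMO-1 shNS replicate 1, NOMO-1 shNS replicate 3 or NOMO-1 shALKBH5 replicate 2 was left out (adjusted p = 0.090, 0.071 and 0.085).

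MEN1 (chr11:64803510-64811294, - strand) encodes menin, the adaptor that ties MLL and its fusions to LEDGF. It stood at 17.3 and 19.2 TPM in NOMO-1 shALKBH5, against 21.6 and 22.6 TPM in NOMO-1 shNS, so that the libraries did not overlap. In MOLM-13 it stood at 19.3 and 17.9 TPM in shALKBH5, against 19.9 and 21.5 TPM in shNS. Neither difference passed the test: -0.26 in NOMO-1 (95% interval -0.52 to -0.01, limma adjusted p = 0.087) and -0.15 in MOLM-13 (-0.40 to 0.11, adjusted p = 0.31). With median-of-ratios scaling MEN1 was called lower in NOMO-1 (-0.47, adjusted p = 0.012) and pointed upwards in MOLM-13 (0.14, adjusted p = 0.33). With array weights per group MEN1 was called lower in NOMO-1 as well (limma adjusted p = 0.013). Its intervals leave out a change as large as that of PSIP1 in either line.

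PSIP1 (chr9:15464066-15511019, - strand) encodes LEDGF, which binds methylated nucleosomes and anchors the menin complex to chromatin. It had 41.9 and 49.8 TPM in NOMO-1 shALKBH5, against 99.9 and 109 TPM in NOMO-1 shNS. In MOLM-13 it had 10.8 and 7.78 TPM in shALKBH5, against 47.3 and 44.6 TPM in shNS. On the log2(TPM + 1) scale this was the largest change among the members in each line, at -1.18 in NOMO-1 (SE 0.17, limma adjusted p = 0.0024) and -2.21 in MOLM-13 (SE 0.17, adjusted p = 0.00039). By group means it was 2.28 times lower in NOMO-1, where the fall of MLLT3 was larger on this measure, and 4.95 times lower in MOLM-13. Of all genes tested, 3.98% in NOMO-1 and 1.52% in MOLM-13 had a change at or below that of PSIP1. The gene gives rise to a long and a short protein isoform, which values per gene do not separate.

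DOT1L (chr19:2164149-2232578, + strand), which methylates lysine 79 of histone H3 and is brought to target genes by fusion partners of the AF9 and AF10 kind, had 46.8 and 48.2 TPM in NOMO-1 shALKBH5, against 53.7 and 50.4 TPM in NOMO-1 shNS. The MOLM-13 values were 35.4 and 25.3 TPM in shALKBH5, against 40.0 and 42.4 TPM in shNS. The shALKBH5 libraries lay below the shNS libraries in both lines, but neither difference passed: -0.13 in NOMO-1 (95% interval -0.51 to 0.26, limma adjusted p = 0.57) and -0.45 in MOLM-13 (-0.83 to -0.06, adjusted p = 0.066). Median-of-ratios scaling gave a call in NOMO-1 (-0.34, adjusted p = 0.0073) and none in MOLM-13 (-0.16, adjusted p = 0.092). Without MOLM-13 shALKBH5 replicate 1, the higher of its 2 libraries, the MOLM-13 difference was -0.68 (adjusted p = 0.0003), and without replicate 3 it was -0.21 (adjusted p = 0.036).

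MLLT10 (chr10:21524675-21743630, + strand) encodes AF10, a cofactor that DOT1L needs to place more than a single methyl group. It had 19.8 and 18.1 TPM in NOMO-1 shALKBH5, against 11.4 and 10.9 TPM in NOMO-1 shNS. In MOLM-13 it had 21.3 and 16.3 TPM in shALKBH5, against 31.4 and 29.6 TPM in shNS. The groups did not overlap in either line and moved in opposite directions. MLLT10 rose in NOMO-1 (0.71, SE 0.14, limma adjusted p = 0.0087), 1.69 times by group means, and fell in MOLM-13 (-0.68, SE 0.14, adjusted p = 0.011), 1.62 times. It rose beside the all-gene median of 0.16 in NOMO-1, and with median-of-ratios scaling both calls held (0.50 and -0.40, adjusted p = 0.0032 and 0.0079). With MOLM-13 fitted alone its adjusted p was 0.071, without either MOLM-13 shNS library it was 0.078 and 0.058, and with array weights per group 0.068. In NOMO-1 the adjusted p was 0.051, 0.063 and 0.066 without shNS replicate 1, shNS replicate 3 or shALKBH5 replicate 2.

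**Figure D2:**
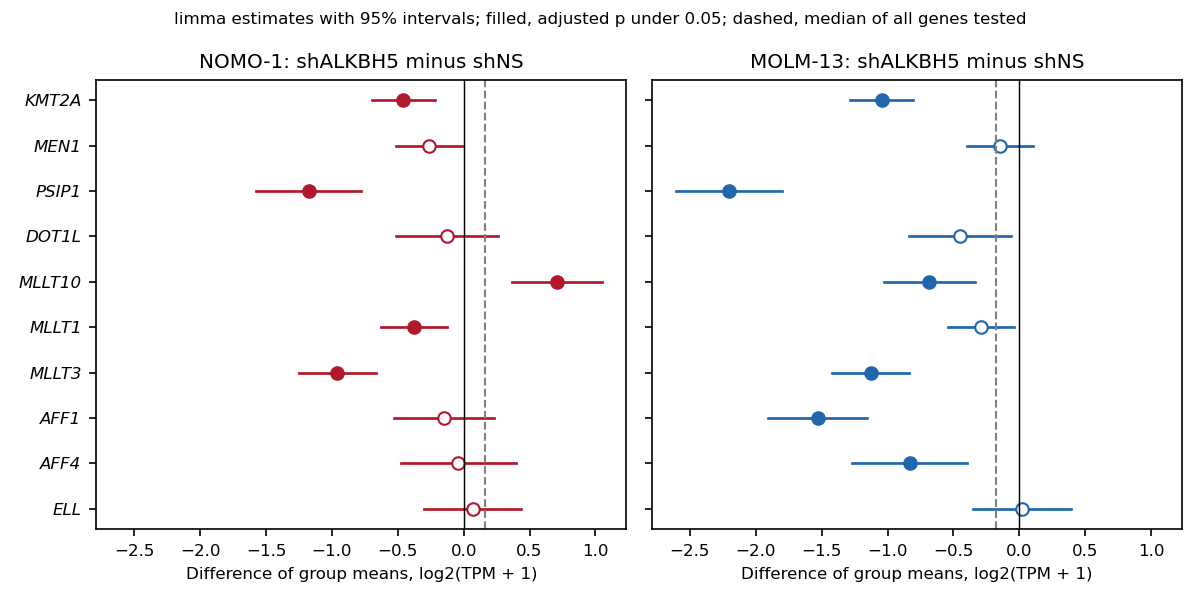
Difference of group means on the log2(TPM + 1) scale, shALKBH5 minus shNS (horizontal axes), with limma's 95% intervals for the 10 members in NOMO-1 and MOLM-13; filled points have an adjusted p under 0.05 and the dashed line is the median of all genes tested. PSIP1 has the lowest point in each panel, at -1.18 and -2.21, and MLLT10 lies at 0.71 in the NOMO-1 panel and at -0.68 in the MOLM-13 panel.

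MLLT1 (chr19:6210379-6279948, - strand) and MLLT3 (chr9:20341665-20622543, - strand) encode the related YEATS-domain proteins ENL and AF9, which read acylated histones and bind DOT1L or the super elongation complex. MLLT1 had 51.8 and 52.0 TPM in NOMO-1 shALKBH5, against 67.8 and 67.7 TPM in NOMO-1 shNS. The MOLM-13 values were 42.9 and 38.1 TPM in shALKBH5, against 47.0 and 52.6 TPM in shNS, again without overlap. The change passed in NOMO-1 (-0.38, SE 0.10, limma adjusted p = 0.026) and missed the threshold in MOLM-13 (-0.29, 95% interval -0.54 to -0.04, adjusted p = 0.064). With median-of-ratios scaling the MOLM-13 difference was at -0.0028 (adjusted p = 0.99), and with quantile scaling it pointed upwards at 0.02 (adjusted p = 0.87). Without MOLM-13 shALKBH5 replicate 1 it was -0.38 (adjusted p = 0.0052). The NOMO-1 call ended when any single library outside MOLM-13 shALKBH5 was left out (adjusted p between 0.051 and 0.13).

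MLLT3, the partner gene in the fusion of both lines, was the lowest of the 10 genes in every group. It had 1.1 and 1.25 TPM in NOMO-1 shALKBH5, against 3.28 and 3.17 TPM in NOMO-1 shNS. In MOLM-13 it had 1.59 and 1.25 TPM in shALKBH5, against 4.5 and 4.06 TPM in shNS. Every shALKBH5 library was below every shNS library of either line. The change was -0.96 in NOMO-1 (SE 0.12, limma adjusted p = 0.0017) and -1.13 in MOLM-13 (SE 0.12, adjusted p = 0.0011). By group means this was 2.74 times lower in NOMO-1 and 3.01 times lower in MOLM-13, larger than the log2(TPM + 1) values show at this low level. With a pseudocount of 0.1 TPM the changes were -1.39 in NOMO-1 and -1.53 in MOLM-13.

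AFF1 (chr4:86935002-87141054, + strand) and AFF4 (chr5:132875379-132963634, - strand) encode AF4 and its relative AFF4, the scaffolds on which the super elongation complex is built. AFF1 had 57.6 and 61.8 TPM in NOMO-1 shALKBH5, against 65.6 and 67.0 TPM in NOMO-1 shNS. The MOLM-13 values were 37.3 and 26.8 TPM in shALKBH5, against 95.2 and 91.6 TPM in shNS. It did not pass in NOMO-1 (-0.15, 95% interval -0.53 to 0.23, limma adjusted p = 0.48) and fell in MOLM-13 (-1.53, SE 0.16, adjusted p = 0.00097), 2.91 times by group means. With median-of-ratios scaling a smaller fall was called in NOMO-1 too (-0.36, adjusted p = 0.0031, beside -1.25 in MOLM-13).

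AFF4 had 19.8 and 19.2 TPM in NOMO-1 shALKBH5, against 20.9 and 19.3 TPM in NOMO-1 shNS, and these libraries overlapped. In MOLM-13 it had 12.2 and 8.13 TPM in shALKBH5, against 19.5 and 17.7 TPM in shNS. It fell in MOLM-13 (-0.83, SE 0.18, limma adjusted p = 0.013), 1.83 times by group means, and was at -0.04 in NOMO-1 (95% interval -0.48 to 0.39, adjusted p = 0.89). The MOLM-13 call ended with that line fitted alone (adjusted p = 0.070), with array weights per group (0.064) and without MOLM-13 shNS replicate 1 or replicate 3 (0.084 and 0.057).

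ELL (chr19:18442663-18522127, - strand) encodes an elongation factor of RNA polymerase II and is itself a fusion partner of KMT2A in other leukaemias. It had 18.6 and 17.0 TPM in NOMO-1 shALKBH5, against 17.2 and 16.6 TPM in NOMO-1 shNS. The MOLM-13 values were 18.1 and 13.4 TPM in shALKBH5, against 14.6 and 16.1 TPM in shNS. The groups overlapped in both lines, and neither difference passed: 0.07 in NOMO-1 (95% interval -0.30 to 0.44, limma adjusted p = 0.76) and 0.02 in MOLM-13 (-0.35 to 0.39, adjusted p = 0.94). With median-of-ratios scaling ELL pointed downwards in NOMO-1 (-0.14, adjusted p = 0.25) and was called higher in MOLM-13 (0.30, adjusted p = 0.031).

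**Figure D3:**
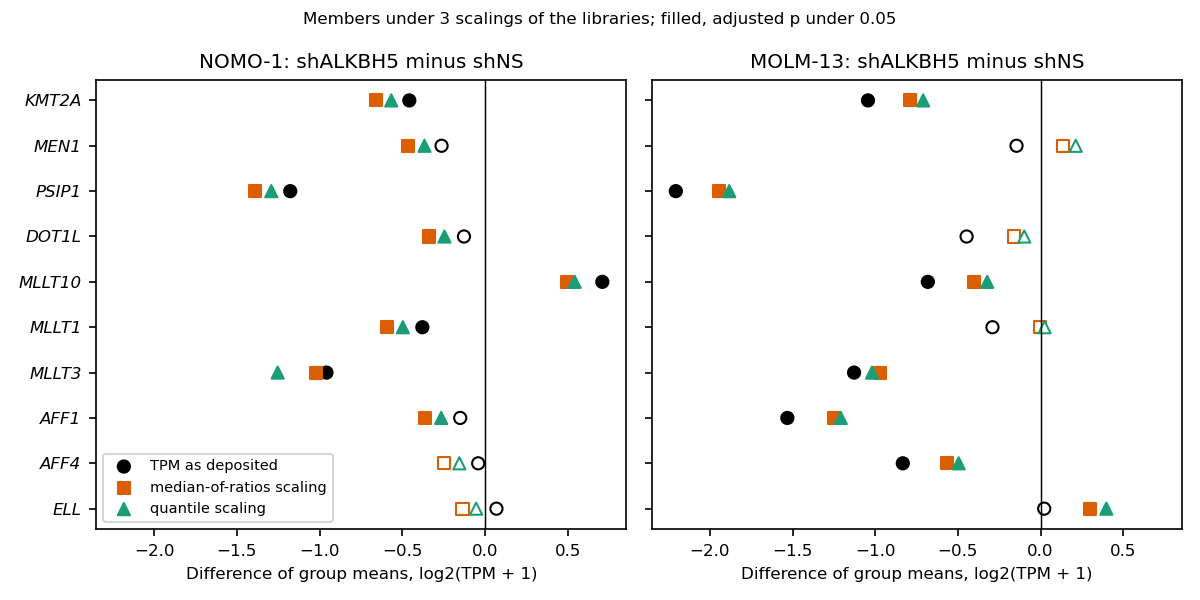
Difference of group means on the log2(TPM + 1) scale, shALKBH5 minus shNS (horizontal axes), for the 10 members under 3 scalings of the libraries; filled symbols have an adjusted p under 0.05. KMT2A, PSIP1 and MLLT3 are filled and below 0 under every scaling in both panels, while MEN1 and MLLT1 change side in MOLM-13 and ELL in NOMO-1.

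The knockdown effects of the lines were compared directly (NOMO-1 minus MOLM-13). The effect was higher in NOMO-1 for 4 members and lower for 0 (limma adjusted p under 0.05, 0 lower at an unadjusted p under 0.05), beside 29.7% of all genes called higher and 4.9% lower (34.6% in either direction), and the median of all genes was 0.42. The members called were MLLT10 (1.39, SE 0.20, adjusted p = 0.0057), AFF1 (1.38, SE 0.22, adjusted p = 0.0075), PSIP1 (1.03, SE 0.23, adjusted p = 0.020) and KMT2A (0.59, SE 0.14, adjusted p = 0.024). With median-of-ratios scaling MLLT10 (0.90), AFF1 (0.88) and PSIP1 (0.56) kept an adjusted p under 0.05, and KMT2A did not (0.13, adjusted p = 0.45). Under that scaling 3 members were instead called lower in NOMO-1 than in MOLM-13: MEN1 (-0.60), MLLT1 (-0.59) and ELL (-0.44). Of all genes, 18.5% were then called higher and 17.1% lower. The PSIP1 difference lost its call without either shNS library of NOMO-1 or of MOLM-13, or without NOMO-1 shALKBH5 replicate 3 (adjusted p = 0.066 to 0.084). The KMT2A difference lost its call without any library outside MOLM-13 shALKBH5 (adjusted p = 0.067 to 0.10). AFF4 was at 0.79 (95% interval 0.18 to 1.41, adjusted p = 0.055), and passed without MOLM-13 shALKBH5 replicate 1 (1.06, adjusted p = 0.00052) or replicate 3 (0.53, adjusted p = 0.011). MLLT3 was at 0.17 (-0.24 to 0.58, adjusted p = 0.47), so a difference of effects for MLLT3 as large as that of MLLT10 lies outside its interval. The other 4 did not pass either: DOT1L was at 0.32 (-0.23 to 0.87), ELL at 0.05 (-0.48 to 0.57), MLLT1 at -0.09 (-0.44 to 0.26) and MEN1 at -0.12 (-0.47 to 0.24). The DOT1L difference was 0.56 (adjusted p = 0.0021) without MOLM-13 shALKBH5 replicate 1 and 0.08 (adjusted p = 0.43) without replicate 3.

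The starting levels differed as well. Between the controls (NOMO-1 shNS minus MOLM-13 shNS), 3 members were higher in NOMO-1 and 2 lower, beside 40.6% and 19.2% of all genes (59.8% in either direction), with an all-gene median of 0.29. PSIP1 averaged 105 ± 6.75 TPM in NOMO-1 shNS and 45.9 ± 1.92 TPM in MOLM-13 shNS (SD, n = 2 each), a log2 difference of 1.17 (limma adjusted p = 0.0012). KMT2A averaged 27.7 ± 0.66 TPM in NOMO-1 shNS and 15.1 ± 0.042 TPM in MOLM-13 shNS (0.84, adjusted p = 0.00054). MLLT1 was also higher in NOMO-1 shNS (0.44, adjusted p = 0.010), a call that ended with median-of-ratios scaling (0.14, adjusted p = 0.21) and without either NOMO-1 shNS library or MOLM-13 shNS replicate 1 (adjusted p = 0.064 to 0.085). MLLT10 averaged 11.2 ± 0.37 TPM in NOMO-1 shNS and 30.5 ± 1.24 TPM in MOLM-13 shNS (-1.37, adjusted p = 0.00029), and AFF1 was lower in NOMO-1 shNS too (-0.49, adjusted p = 0.034). After knockdown, MLLT10 averaged 18.9 ± 1.20 TPM in NOMO-1 shALKBH5 and 18.8 ± 3.56 TPM in MOLM-13 shALKBH5, a pair of groups that was not tested. The AFF1 call between the controls ended with no filter on low values (adjusted p = 0.051) and without any 1 library of 6 (0.061 to 0.14), those outside MOLM-13 shALKBH5. MLLT3 was at -0.32 (adjusted p = 0.059) and was called lower in NOMO-1 shNS with median-of-ratios scaling (-0.56, adjusted p = 0.0033).

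Since TPM is scaled to length, the members can be ranked within a group. In NOMO-1 shALKBH5, AFF1 stood first (59.7 ± 2.96 TPM), followed by MLLT1, DOT1L and PSIP1, of which DOT1L and PSIP1 overlapped. KMT2A, AFF4, MLLT10, MEN1 and ELL followed between 19.9 and 17.8 TPM, each overlapping the next, and MLLT3 was last. In NOMO-1 shNS, PSIP1 stood first, followed by MLLT1, AFF1, DOT1L, KMT2A, MEN1, AFF4, ELL, MLLT10 and MLLT3, with no overlap between neighbours. In MOLM-13 shALKBH5, MLLT1 stood first (40.5 ± 3.42 TPM), and AFF1 and DOT1L overlapped behind it. MLLT10, MEN1 and ELL overlapped in turn, as did AFF4 and PSIP1, and KMT2A (6.8 ± 0.55 TPM) and MLLT3 were last. In MOLM-13 shNS, AFF1 stood first (93.4 ± 2.57 TPM), then MLLT1 and PSIP1, which overlapped, DOT1L, MLLT10, MEN1 and AFF4, then ELL and KMT2A, which overlapped, and MLLT3. PSIP1 thus held rank 4 of 10 in NOMO-1 shALKBH5 against rank 1 in NOMO-1 shNS, and in MOLM-13 it held rank 8 in shALKBH5 against rank 3 in shNS.

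Ratios of related members within a library do not depend on how the library is scaled, apart from the pseudocount of 1 TPM. The log2 ratio of PSIP1 over MEN1, the LEDGF and menin transcripts, was 1.23 and 1.33 in NOMO-1 shALKBH5, against 2.16 and 2.23 in NOMO-1 shNS. In MOLM-13 it was -0.78 and -1.11 in shALKBH5, against 1.21 and 1.02 in shNS, so that PSIP1 stood above MEN1 in the controls and below it after knockdown. The ratio of MLLT3 over MLLT1, the AF9 and ENL transcripts, was -4.65 and -4.56 in NOMO-1 shALKBH5, against -4.01 and -4.04 in NOMO-1 shNS. In MOLM-13 it was -4.08 and -4.12 in shALKBH5, against -3.13 and -3.40 in shNS. Both ratios were lower in every shALKBH5 library than in every shNS library of the same line. The mean difference over the lines was -1.49 for PSIP1 over MEN1 and -0.71 for MLLT3 over MLLT1, each with p = 0.056 in an exact two-sided permutation test within lines, the smallest p that its 36 arrangements allow. The ratio of AFF4 over AFF1, the scaffold transcripts, was -1.49 and -1.64 in NOMO-1 shALKBH5, against -1.60 and -1.75 in NOMO-1 shNS, with overlap, and -1.54 and -1.61 in MOLM-13 shALKBH5, against -2.23 and -2.31 in MOLM-13 shNS (mean difference 0.40, exact permutation p = 0.11). The 3 ratios were computed as 1 family, and no adjusted p can pass in it.

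**Figure D4:**
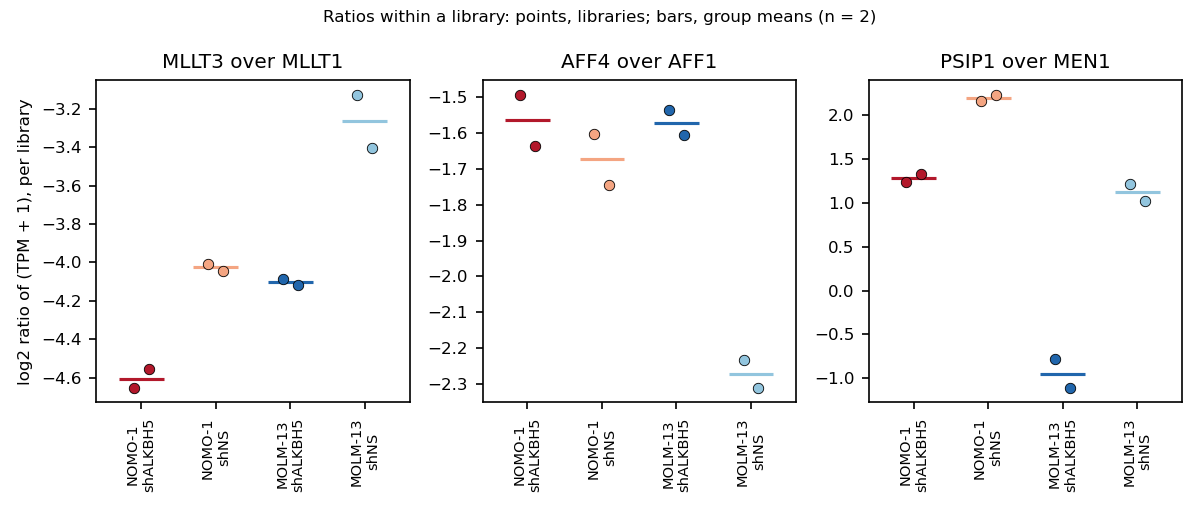
The log2 ratio of (TPM + 1) of 3 pairs of members in each library (vertical axes, which do not start at 0), by group, with points for libraries and bars for group means (n = 2). PSIP1 over MEN1 is above 0 in both control groups and in NOMO-1 shALKBH5, and below 0, at -0.78 and -1.11, in MOLM-13 shALKBH5.

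The genes whose profiles lay closest to a member's were found by the root mean square difference of log2(TPM + 1) over the 8 libraries, after each gene's own mean was subtracted, among genes that averaged 5 TPM or more. FBXO5 (0.069) and FEN1 (0.11) were closest to PSIP1, whose own profile had a root mean square of 1.23. S100PBP (0.054) and IPO11 (0.058) were closest to KMT2A, COPG2 (0.076) and PRR13 (0.076) to MLLT3, and NFXL1 (0.10) to MLLT10. ANAPC13 (0.079) and EPS8 (0.10) were closest to AFF1, and DIMT1 (0.047) and CLASP2 (0.059) to AFF4. For the members with flatter profiles, DOT1L, MLLT1, MEN1 and ELL (root mean square 0.32, 0.27, 0.12 and 0.14), the closest genes were CPSF7 and RBM42, TRIM28 and BMP1, ZNF593 and ACTR3B, and TAF6L and PKD1, at distances from 0.033 to 0.054. No other member was among the closest pair of any member.

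Other subunits of the same machinery were counted from lists compiled with earlier results of these data known. Beside these counts, 28.6% of all genes tested were called higher and 15% lower in NOMO-1. In MOLM-13, 10.6% were called higher and 31.2% lower. A gene is named for the line in which its p was among the 2 smallest of its list. It may also have been called in the other line. Of 20 genes of the MLL core and other H3K4 methyltransferase complexes, 3 rose and 2 fell in NOMO-1 (median 0.06), and 0 rose and 7 fell in MOLM-13 (median -0.23). KMT2C and KMT2D, relatives of MLL that act at enhancers, rose in NOMO-1 (0.80 and 0.48, limma adjusted p = 0.0066 and 0.012). TASP1, the protease that cleaves MLL, and PAXIP1, an adaptor of the KMT2C and KMT2D complexes, fell in MOLM-13 (-1.27 and -1.16, adjusted p = 0.0017 and 0.0035). PAXIP1 fell in NOMO-1 too (-0.67, adjusted p = 0.023). Of 16 genes of P-TEFb, the kinase of elongation, the super elongation complex and the 7SK particle, 6 rose and 1 fell in NOMO-1 (median 0.28), and 1 rose and 6 fell in MOLM-13 (median -0.39). HEXIM1, the inhibitor of P-TEFb, rose in NOMO-1 (0.54, adjusted p = 0.0049) and in MOLM-13 (0.31, adjusted p = 0.038). ICE2, a subunit of the little elongation complex, fell in MOLM-13 (-1.38, adjusted p = 0.0031).

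The AFF relatives of AFF1 and AFF4 in that list differed widely between the lines. AFF2 had 167 and 196 TPM in NOMO-1 shALKBH5, against 81.8 and 80.2 TPM in NOMO-1 shNS (1.15, limma adjusted p = 0.00077), and was at 0.01 TPM in all 4 MOLM-13 libraries. AFF3 had 11.7 and 5.06 TPM in MOLM-13 shALKBH5, against 26.0 and 26.3 TPM in MOLM-13 shNS (-1.63, adjusted p = 0.0095), and was between 0.52 and 1.2 TPM in NOMO-1. On the length-scaled TPM scale, AFF2 stood above AFF1 in all 4 NOMO-1 libraries.

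Of 16 genes of the PAF1 complex and of polymerase pausing, 6 rose and 4 fell in NOMO-1 (median 0.17), and 1 rose and 8 fell in MOLM-13 (median -0.39). SUPT16H, a subunit of the histone chaperone FACT, fell in both lines (-1.25 in NOMO-1 and -1.26 in MOLM-13, limma adjusted p = 0.0010 and 0.0012). SUPT5H, a pausing and elongation factor, rose in NOMO-1 (0.90, adjusted p = 0.0011), and TCEA1, which rescues stalled polymerase, fell in MOLM-13 (-1.58, adjusted p = 0.0013). Of 15 tested genes known as targets of MLL fusions, 2 rose and 5 fell in NOMO-1 (median 0.01), and 0 rose and 15 fell in MOLM-13 (median -1.71). Among them, ZNF521 and FLT3 reached at most 0.07 and 0.55 TPM in NOMO-1 and passed the filter of 1 TPM only through MOLM-13. These genes could hardly fall in NOMO-1, yet they are part of its count and median. BCL2, an anti-apoptotic gene, and CDK6, a cell cycle kinase, had the smallest p in NOMO-1 (-2.29 and -1.01, adjusted p = 0.00037 and 0.0010), and ZNF521 and CDK6 in MOLM-13 (-2.21 and -2.12, adjusted p = 0.00014 and 0.00018). The all-gene medians of 0.16 and -0.18 stand beside each list median. Beside each count stand the all-gene shares of 28.6% higher and 15% lower in NOMO-1, and 10.6% and 31.2% in MOLM-13.

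The counts of these lists were also taken with median-of-ratios scaling, an alternative chosen after the data were seen. Under it, 23.7% of all genes were called higher and 26% lower in NOMO-1, and 24.1% higher and 26.4% lower in MOLM-13. Of the H3K4 methyltransferase genes, 3 were then higher and 8 lower in NOMO-1 (median -0.14), and 2 higher and 4 lower in MOLM-13 (median 0.05), so that both medians changed sign. KMT2C and KMT2D, which had not passed in MOLM-13, were then called higher there as well (0.24 and 0.27, limma adjusted p = 0.016 and 0.032). Of the elongation complex genes, 5 were higher and 6 lower in NOMO-1 (median 0.11), and 1 higher and 6 lower in MOLM-13 (median -0.13). Of the PAF1 and pausing genes, 5 were higher and 7 lower in NOMO-1 (median -0.05), and 3 higher and 5 lower in MOLM-13 (median -0.11). The fusion targets had 1 higher and 7 lower in NOMO-1 (median -0.19), and 0 higher and 14 lower in MOLM-13 (median -1.43). Each list gene named above kept its direction and its call under this scaling in the line for which it is named.

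**Figure D5:**
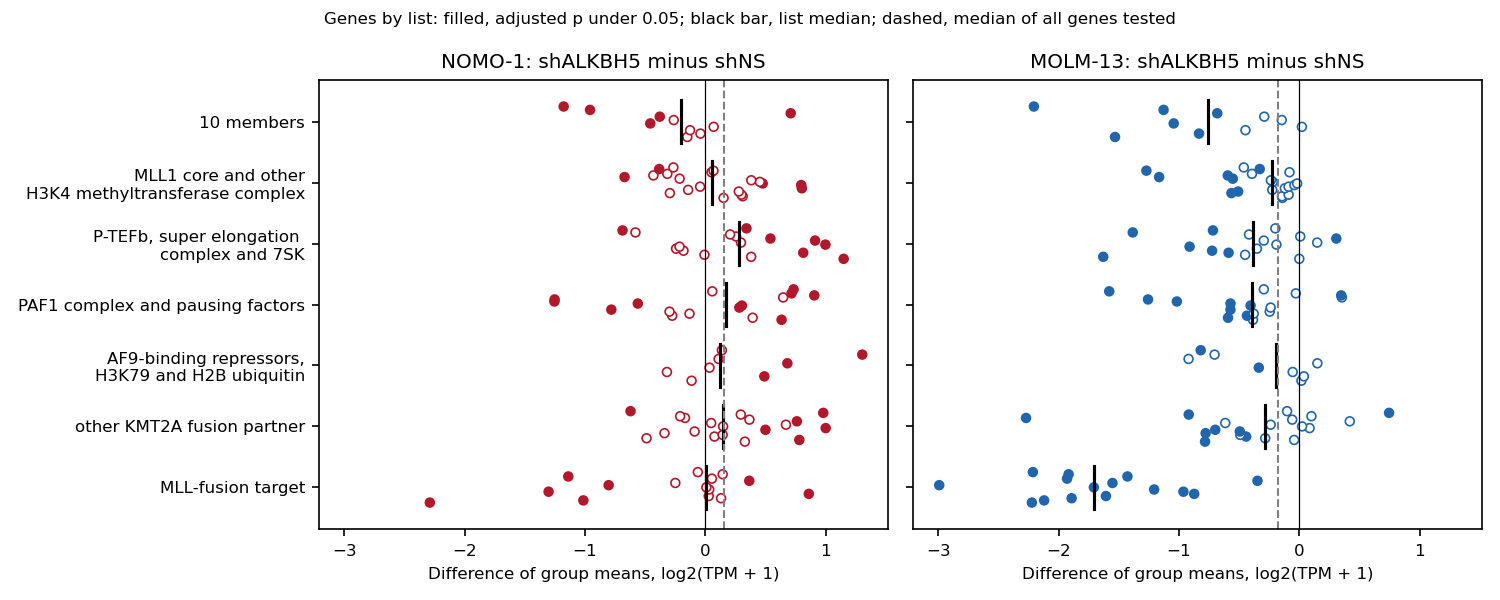
Difference of group means on the log2(TPM + 1) scale, shALKBH5 minus shNS (horizontal axes), for each tested gene of the 10 members and of 6 related lists; filled points have an adjusted p under 0.05, black bars are list medians and the dashed line is the median of all genes tested. In the right panel the 15 tested fusion target genes all lie below 0, with a median of -1.71, and the members' median is -0.76.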

How the data were processed

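RNA-seq of 8 libraries in 4 groups of 2 was analysed from 1 deposited table of TPM values per gene symbol. The authors used STAR, RSEM and GRCh38, per the submitters' processing notes; for versions and annotation the sources used here say nothing. Deposited TPM values sum to 1000000 per library within rounding, so depth is unknown. The labels also describe treatments that no sample lists. From the table, log2(TPM + 1) was fitted with limma 3.58.1 (R 4.3.3) over the 14302 genes that reached 1 TPM in 2 or more libraries, with 1 mean per group over all 8 libraries (4 residual degrees of freedom), an intensity trend and Benjamini-Hochberg adjustment at 0.05. The fit was checked on simulated data for the NOMO-1 comparison only. The simulation gave each gene the same spread in all groups, unlike the real MOLM-13 shALKBH5 libraries. P-values of MOLM-13 and of the difference between lines were therefore not checked. Alternatives were another pseudocount, filter or scaling, array weights, lines fitted alone, a replicate block and leaving out each library. Ratios were tested by exact two-sided permutation within lines. The members and lists were chosen with earlier results of these data known. From each list the 2 genes with the smallest p among those called are named per line, and the 2 genes of closest profile per member, of which 1 is not reported here.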

Additional observations from a re-analysis of the deposited data

Results flagged for a closer look

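The effect of ALKBH5 knockdown differed between NOMO-1 and MOLM-13 (NOMO-1 minus MOLM-13, limma interaction on the log2(TPM + 1) scale) for 4 of the 10 genes. Over all genes tested, 29.7% were called higher and 4.9% lower in this comparison (34.6% in either direction), and their median was 0.42. The difference was 1.39 for MLLT10, 1.38 for AFF1, 1.03 for PSIP1 and 0.59 for KMT2A (adjusted p = 0.0057, 0.0075, 0.020 and 0.024). MLLT10 rose in NOMO-1 and fell in MOLM-13, whereas PSIP1 and KMT2A fell in both lines, and AFF1 was called lower in MOLM-13 and not in NOMO-1. MLLT10, AFF1 and PSIP1 kept this call with median-of-ratios scaling, and KMT2A did not. With 2 libraries a group, no group was large enough to be examined for a single outlying library. The shALKBH5 libraries of MOLM-13 differed most from each other. With array weights per group, MLLT10, AFF1 and PSIP1 kept this call (limma adjusted p = 0.0089, 0.0065 and 0.045). KMT2A did not (0.061). Beyond that fit, the part of that spread in these differences was not tested.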

How the results depend on the processing

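Over 696 member results under the alternatives, 574 kept direction and call, 62 lost the call, 36 gained one and 24 changed sign. PSIP1 and MLLT3 in both lines, and KMT2A and AFF1 in MOLM-13, lost their knockdown call only under the replicate block fitted over all 8 libraries. MLLT3 was too low to be tested with the filter at 5 TPM, and with array weights its limma adjusted p in MOLM-13 was 0.033. With median-of-ratios or quantile scaling, 7 members were lower in NOMO-1, 1 was higher in MOLM-13 and 3 were lower in the difference, beside 26%, 24.1% and 17.1% of all genes with the first scaling and 23.9%, 24.4% and 15.8% with the second. Without a filter, 1 member was lower between the controls. Genes called in NOMO-1 were 6242, against 9712 with array weights and 9418 with NOMO-1 alone; in MOLM-13 they were 5972, against 2811 with array weights and 2593 with MOLM-13 alone. With the replicate block over all 8 libraries, 0 genes and 0 members, higher or lower, were called in either line or in the difference. That fit had 1 residual degree of freedom, which came from MOLM-13, and its NOMO-1 change was that of replicate 3 alone. Limma's unadjusted p was under 0.05 for 2762, 4307 and 2431 genes. With MOLM-13 fitted alone and a replicate block, PSIP1, KMT2A, MLLT3 and AFF1 kept their call in that line. Deviations from the group mean correlated at 0.13 over 8804 genes between MOLM-13 libraries of the same replicate number, and the NOMO-1 groups share 1 number. With 2 libraries a group, these values neither show nor exclude pairing.

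Sign changed with median-of-ratios scaling for ELL in NOMO-1 (-0.14), MEN1 in MOLM-13 (0.14), DOT1L, MLLT3 and ELL in the difference (-0.18, -0.053 and -0.44) and MEN1, AFF4 and ELL between controls (-0.20, -0.18 and -0.16). With quantile scaling it changed for ELL in NOMO-1 (-0.054), MEN1 and MLLT1 in MOLM-13 (0.21 and 0.024), DOT1L, MLLT3 and ELL in the difference (-0.15, -0.23 and -0.45) and MEN1, DOT1L, AFF4 and ELL between controls (-0.24, -0.014, -0.22 and -0.17). The share of calls that were higher moved with median-of-ratios scaling from 65.6% to 47.7% in NOMO-1, 25.3% to 47.8% in MOLM-13, 85.8% to 52.0% for the difference and 67.9% to 52.2% between controls; the cause was not tested.

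Leaving out 1 library at a time gave 3244 to 9755 genes in NOMO-1, 2631 to 9389 in MOLM-13, 1586 to 9638 for the difference and 6411 to 11183 between controls. Members higher and lower numbered 0 to 1 and 2 to 6 in NOMO-1, 4 to 8 lower in MOLM-13, 2 to 6 higher for the difference, and 2 to 4 higher and 1 to 3 lower between controls. AFF4 in NOMO-1 ranged from -0.10 to 0.015, ELL in MOLM-13 from -0.18 to 0.22 and ELL in the difference from -0.16 to 0.25. The ratios ranged from -0.78 to -0.64 (MLLT3 over MLLT1), 0.37 to 0.44 (AFF4 over AFF1) and -1.57 to -1.41 (PSIP1 over MEN1).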

Other observations

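Among 19 other genes that fuse with KMT2A in leukaemia, 5 rose and 1 fell in NOMO-1 (median 0.15), and 1 rose and 7 fell in MOLM-13 (median -0.28), beside all-gene medians of 0.16 and -0.18. Of all genes tested, 28.6% were called higher and 15% lower in NOMO-1, and 10.6% and 31.2% in MOLM-13. FOXO4, a forkhead transcription factor, and SH3GL1, an endocytosis protein, rose in NOMO-1 (1.00 and 0.98, limma adjusted p = 0.00090 and 0.0069). SEPT5, a septin, and FOXO3, another forkhead factor, fell in MOLM-13 (-2.27 and -0.70, adjusted p = 0.00056 and 0.0040). Under the median-of-ratios alternative, chosen here after the data were seen, 5 were higher and 5 lower in NOMO-1, and 4 higher and 6 lower in MOLM-13, beside 23.7% higher and 26% lower of all genes in NOMO-1, and 24.1% and 26.4% in MOLM-13.

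Of 8 genes for AF9-binding repressors, H3K79 methylation and H2B ubiquitination, 3 rose and 0 fell in NOMO-1 (median 0.12), and 0 rose and 2 fell in MOLM-13 (median -0.20). Both medians lay near the all-gene medians of 0.16 and -0.18. All genes tested had 28.6% called higher and 15% lower in NOMO-1, and 10.6% and 31.2% in MOLM-13. RNF40, a subunit of the H2B ubiquitin ligase, and UBE2B, a ubiquitin-conjugating enzyme, rose in NOMO-1 (0.68 and 1.303, limma adjusted p = 0.0020 and 0.011). WAC, an adaptor of that ligase, and RNF20, its other subunit, fell in MOLM-13 (-0.82 and -0.34, adjusted p = 0.019 and 0.021). Under the same alternative 2 were higher and 1 lower in NOMO-1 (median -0.09), and 2 higher and 2 lower in MOLM-13 (median 0.09), and RNF20 did not pass (-0.05, adjusted p = 0.75).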
